A study of Mus musculus with 4 samples.

Results

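The genes described here were the well covered C2H2 zinc finger genes of N2a cells, a mouse neuroblastoma line. They were chosen by name and by measured depth. A gene was taken where its symbol was Zfp followed by a number alone and where at least 1000 reads fell on it over the 4 libraries together. This rule kept 243 of the 322 genes of that name, in a table of 22667 genes. Of the other 79 genes, 49 had at least 75 reads, 18 had 1 to 74 and 12 had none. Zfp488 with 1038 reads, Zfp595 with 1072 and Zfp738 with 1092 stood just inside the minimum, and Zfp345 with 975, Zfp59 with 966 and Zfp458 with 930 just outside it. Since the minimum of reads chose the genes, their high number of reads is no result, whereas the ratios between libraries played no part in the rule. Zfp319 is listed under 2 Ensembl identifiers, so the 243 entries hold 242 symbols.

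C2H2 zinc finger proteins are the most numerous class of DNA-binding proteins in mammals. Each finger is a short loop in which cysteines and histidines hold a zinc ion, and fingers in a row read a stretch of bases, so that proteins with different fingers bind different sites. Many also carry a KRAB domain at the N-terminus, which recruits TRIM28 and through it a histone methyltransferase and heterochromatin proteins, and such proteins silence transposable elements and imprinted loci. Many C2H2 genes lie in clusters of related copies, and other members of the class bind RNA or act in ribosome assembly instead.

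N2a cells had been transfected for 48 h with either non-targeting control siRNAs (siControl) or siRNA against ARGLU1 (siArglu1), for which the methods name 1 sequence. ARGLU1 is a coactivator of the glucocorticoid receptor and an RNA-binding splicing regulator. The cells were then treated for 4 h with vehicle (EtOH, Veh) or with 100 nM dexamethasone (Dex), a synthetic agonist of that receptor. Both transfections were combined with both treatments, and each of the 4 groups (siControl Veh and Dex, siArglu1 Veh and Dex) had 1 polyA library, made from the pooled mRNA of 3 cultures, so the spread between cultures cannot be seen. No comparison below therefore has a replicate check, and the intervals given cover counting error only. All groups came from 1 tumour-derived line.

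Reads on genes numbered 66074574 to 86541444 per library. Arglu1 itself had 10165 and 11825 reads in the siControl libraries (Veh and Dex) and 2637 and 3254 in the siArglu1 libraries, and its log2 ratio was -1.92 in vehicle and -2.15 in Dex. The 12 markers of sympathetic neuroblastoma cells reported here, Hand2 among them, each had at least 75 reads. Their summed cRPKM, a read number corrected for the mappable length of the gene and for library size, was 1491 and 1538 in the siControl libraries and 1959 and 1967 in the siArglu1 libraries. A few high genes weigh most in this sum, as Tubb3 alone had 629.58 in siControl Veh. In vehicle, 2 of these markers were below 0 after knockdown and the others above. These were Th, with log2 ratios of -1.26 in vehicle and -0.90 in Dex, and Map2, with -0.66 and -0.37. Of 9 markers of glia, microglia, fibroblasts and endothelium, 3 had at least 75 reads, and their summed cRPKM was at most 2.22 in a library. The part of these marker differences in the results below was not tested, and in pooled bulk RNA fewer cells of a kind and less RNA per cell cannot be told apart.

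The label of a C2H2 class was checked against the GENCODE M21 transcript with the longest coding sequence, found for 242 of the 243 genes. A C2H2 finger was counted where 2 cysteines 2 to 4 residues apart were followed after 12 residues by 2 histidines 3 to 5 residues apart. At least 1 finger was found in 236 genes, with a median of 10 over the class and a range of 0 to 36. This pattern did not bear out the label in 6 genes. They were Zfp36, an mRNA decay factor with CCCH fingers, Zfp259, the ZPR1 protein, and Zfp330, Zfp365, Zfp503 and Zfp703. Fingers of another spacing are missed by the pattern, so a gene without a match may still hold a C2H2 finger. A KRAB pattern was found in 107 genes. By gene order in RefSeq, 123 of the 243 lay next to another zinc finger gene, with 77 of the 107 KRAB genes and 46 of the 135 others. Where neighbours share sequence, reads may have been split between them, so their single values are uncertain.

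The promoters of this class were set beside those of all genes in windows of 250 bases before to 50 after the start (RefSeq, GRCm38.p6). The windows of all genes include the class and genes with few or no reads in these cells. The shares thus set a class chosen for its reads beside genes of any level, and no set of genes with like reads was compared. A window was found for 201 of the 243 genes, with 246 windows in all. Letters were searched on both strands. The GC box GGGCGG was in 48.4% of them, beside 35.7% of all 32851 windows. The CCAAT box was in 45.5% beside 37.4%, and in 56.4% of the windows of KRAB genes. The ETS core CCGGAAG was in 20.3% beside 8.86%. By contrast, TATAAA was in 6.91% beside 13.6%, and AGAACA, letters to which the glucocorticoid receptor can bind, in 14.2% beside 19%. The median window held 16 CpG dinucleotides, beside 7 over all windows. These shares are descriptions, and a match is not a bound site.

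The windows of the 2 genes with the largest falls and of the 2 with the largest rises after knockdown that had an entry are given here, so that the letters before genes that moved in opposite directions can be read side by side. Capitals mark each match to the searched motifs on either strand. Zfp9, a further gene that rose, had none in the table. All 4 lie on the plus strand of GRCm38.p6, Zfp606 at chr7:12478055-12478354, Zfp30 at chr7:29783718-29784017, Zfp580 at chr7:5051282-5051581 and Zfp414 at chr17:33628842-33629141. In the order of the sequence, the window of Zfp606 holds a GC box, an ETS core and a CCAAT box, and that of Zfp30 a CCAAT box. That of Zfp414 holds a CCAAT box, a TATA box and another CCAAT box, and in the window of Zfp580 none of these letters occurs.
Zfp606: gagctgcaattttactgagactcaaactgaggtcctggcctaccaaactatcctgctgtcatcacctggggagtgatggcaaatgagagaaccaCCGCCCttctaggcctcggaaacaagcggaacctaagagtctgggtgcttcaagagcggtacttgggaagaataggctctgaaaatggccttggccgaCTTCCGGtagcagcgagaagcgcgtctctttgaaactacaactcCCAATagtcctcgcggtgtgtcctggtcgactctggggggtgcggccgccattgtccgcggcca
Zfp30: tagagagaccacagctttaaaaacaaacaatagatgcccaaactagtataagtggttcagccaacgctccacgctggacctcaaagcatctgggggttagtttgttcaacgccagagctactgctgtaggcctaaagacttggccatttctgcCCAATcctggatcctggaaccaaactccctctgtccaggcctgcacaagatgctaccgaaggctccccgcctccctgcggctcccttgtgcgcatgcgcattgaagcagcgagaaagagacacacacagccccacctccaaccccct
Zfp580: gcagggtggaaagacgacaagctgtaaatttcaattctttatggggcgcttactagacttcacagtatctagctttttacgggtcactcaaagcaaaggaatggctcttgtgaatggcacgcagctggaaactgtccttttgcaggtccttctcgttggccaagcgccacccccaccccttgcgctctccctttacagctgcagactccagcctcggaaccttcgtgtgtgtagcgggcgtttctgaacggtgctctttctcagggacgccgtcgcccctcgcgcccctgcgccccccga
Zfp414: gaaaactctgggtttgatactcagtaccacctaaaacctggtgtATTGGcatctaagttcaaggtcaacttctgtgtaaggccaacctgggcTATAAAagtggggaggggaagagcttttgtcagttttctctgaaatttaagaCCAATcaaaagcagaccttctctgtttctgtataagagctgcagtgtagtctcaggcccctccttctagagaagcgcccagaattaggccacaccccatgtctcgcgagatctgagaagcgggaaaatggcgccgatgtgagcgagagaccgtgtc

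Zinc finger genes were expressed at low levels. Their mean cRPKM had a median of 5.84, beside 15.74 for the 10009 other genes with at least 1000 reads, and KRAB genes lay lower, at 4.497, than genes without a KRAB pattern, at 8.04. The class as a whole took 0.752% and 0.744% of the reads in the siControl libraries (Veh and Dex) and 0.674% and 0.711% in the siArglu1 libraries. Its median cRPKM was 6.15, 6.03, 5.34 and 5.79 in the same order, so both siArglu1 libraries lay below both siControl libraries. The transcripts of the class were longer than those of the other genes, with a median 3′ UTR of 1230 nt beside 985 nt, and less GC-rich, with 47.05% GC beside 50.61%.

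The highest levels belonged to genes that are not KRAB repressors. Zfp207, which binds microtubules and helps to build the spindle, had a cRPKM of 111.58 and 115.19 in the siControl libraries (Veh and Dex) and 83.97 and 85.92 in the siArglu1 libraries. Zfp706, whose coding sequence is only 76 residues long, had 70.98, 72.62, 70.64 and 63.23 in that order, and Zfp330 had 65.61, 67.13, 62.75 and 58.84. Zfp207 was thus lower in both siArglu1 libraries, with log2 ratios of -0.38 and -0.43, whereas Zfp706 and Zfp330 had intervals that held 0 in vehicle and were lower by 0.21 and 0.20 on the log2 scale in the Dex pair. Zfp664 had 55.78, 54.01, 38.83 and 40.93 and was lower in both siArglu1 libraries, by 0.49 and 0.41. Zfp575, the fifth by mean level, is described with the genes of the highest ratios.

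Whether zinc finger genes changed after ARGLU1 knockdown was asked in vehicle and in Dex, in pairs of libraries that share none. The size used was a log2 ratio of 0.81 between scaled read counts. In vehicle, 10 of the 243 genes were lower by this size and 4 were higher, whereas among all 12497 genes with at least 75 reads 8.77% were lower and 7.0% higher. In Dex, 2 were lower and 4 higher, beside 5.93% and 6.19% of all genes. The class thus held fewer genes past this size than the background in either direction. Among other genes that also had at least 1000 reads, 7.08% were lower and 5.25% higher in vehicle, and 4.56% and 4.3% in Dex.

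Most of the class moved little. The absolute log2 ratio was under 0.5 in both pairs for 179 genes, or 73.7%, beside 59.9% of all genes tested. That share was not taken among other genes with at least 1000 reads. Their ratios in vehicle had quartiles of -0.35 and 0.33, beside -0.37 and 0.35 for all genes tested. The median ratio of the class was -0.11 in vehicle, where 149 of the 243 genes were below 0, and -0.04 in Dex, where 136 were below 0. Over all genes tested, the median in vehicle was 0.00. The counting interval left out 0 for 174 genes in vehicle and for 180 in Dex, so most shifts in the class were larger than counting error. These counts were not made for all genes or for other genes with like reads. The minimum of reads that chose the class favours narrow intervals, so the counts do not set the class apart. Whether the shifts were larger than the spread between cultures could not be tested.

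The ratios of both pairs were alike gene by gene. Over the 243 genes they correlated with Pearson's r of 0.892 and Spearman's rho of 0.892, and 212 genes, or 87.2%, had the same sign in both. The other genes with at least 1000 reads had an r of 0.940 and the same sign in 87.6%. Only 1 zinc finger gene, Zfp606, was lower by 0.81 in both pairs, and 3 were higher, Zfp9, Zfp580 and Zfp414, that is, 0.412% and 1.23% of the class beside 5.07% and 4.83% of all genes. At 0.5 in both pairs, 21 were lower and 8 higher, or 8.64% and 3.29% beside 12.2% and 11.7%. The shares of all genes include genes with fewer reads than the class, and none was taken among other genes with at least 1000 reads.

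**Figure D1:**
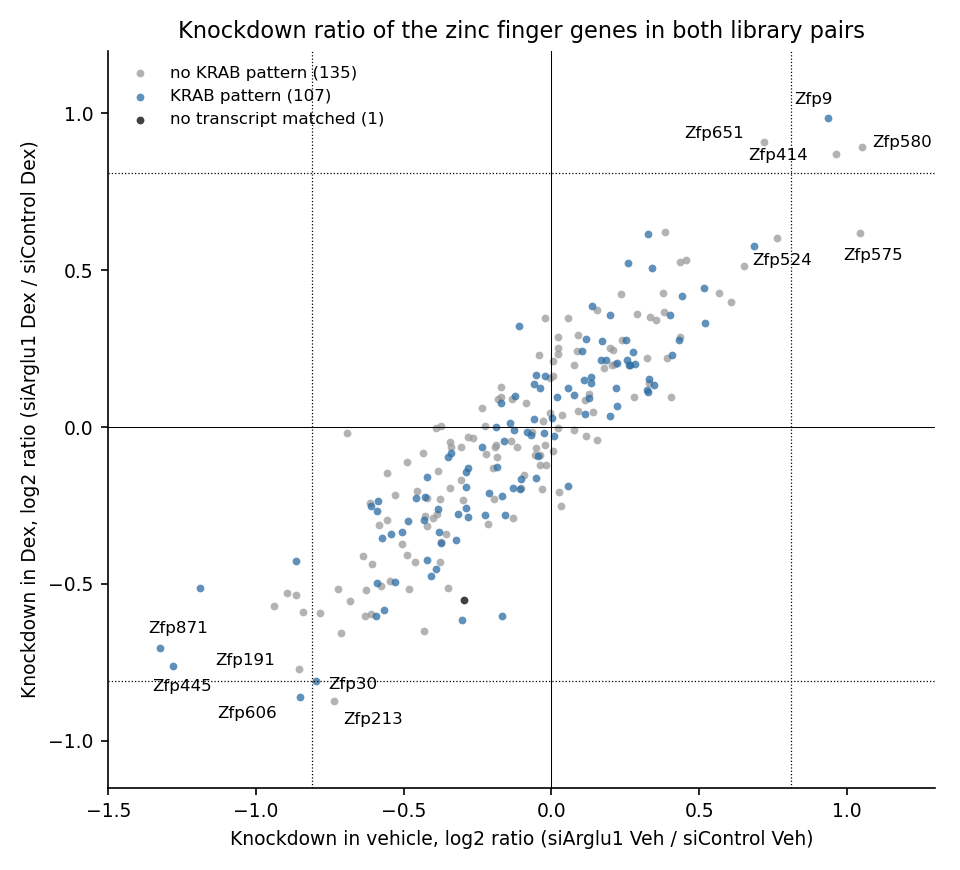
Log2 ratio of siArglu1 over siControl for each of the 243 zinc finger genes in vehicle (x axis) and in Dex (y axis), coloured by the KRAB pattern, with dotted lines at 0.81 on either side of 0. The points follow the diagonal, most lie within 0.5 of 0, and the 12 labelled genes are the 6 largest falls and 6 largest rises by the smaller of the 2 ratios.

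Of the 6 genes with the lowest ratios over both pairs, Zfp606, a KRAB protein with 13 fingers, had a cRPKM of 3.69 and 3.48 in the siControl libraries (Veh and Dex) and 2.0 and 1.93 in the siArglu1 libraries. Both siArglu1 libraries lay well below both siControl libraries, and Dex made little difference on either side. Its log2 ratio was -0.85 (95% interval -0.99 to -0.71) in vehicle and -0.86 (-0.99 to -0.73) in Dex. Zfp30, also of the KRAB kind, went from 1.41 and 1.53 in siControl Veh and Dex to 0.79 and 0.88 in siArglu1 Veh and Dex. This was a log2 ratio of -0.80 (-1.07 to -0.53) and -0.81 (-1.04 to -0.58) on only 185 to 382 reads per library, just short of the size used.

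Zfp191, known from its need in the myelination of the central nervous system, had 4525 and 4845 reads in siControl Veh and Dex and 2463 and 3470 in siArglu1 Veh and Dex. On the cRPKM scale these were 12.05 and 11.97 against 6.51 and 7.06, and its log2 ratios were -0.85 and -0.77. Zfp213 had a cRPKM of 6.29 and 6.80 against 3.69 and 3.73, with ratios of -0.73 and -0.87. In both genes the siControl and siArglu1 libraries did not overlap, and they had no KRAB pattern by the search used.

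In a further group, the ratio was farther from 0 in vehicle than in Dex. Zfp445, which with Zfp57 keeps the methylation of imprinting control regions, had a cRPKM of 14.87 and 14.57 in the siControl libraries (Veh and Dex) and 5.98 and 8.64 in the siArglu1 libraries. Its log2 ratio was -1.28 (-1.38 to -1.18) in vehicle and -0.76 (-0.84 to -0.68) in Dex, intervals that do not overlap. Zfp871 had 3.54, 3.07, 1.38 and 1.90 in that order, with ratios of -1.32 and -0.70. Zfp568, which silences a placental promoter of Igf2, had 7.30, 6.87, 3.13 and 4.84, with ratios of -1.19 and -0.51. The siArglu1 Veh library held the lowest value of each of these 3 genes. The other genes lower by 0.81 in vehicle were Zfp292, Zfp398, Zfp287, Zfp652 and Zfp395, with log2 ratios between -0.94 and -0.84 there and between -0.59 and -0.43 in Dex.

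Of the 6 genes with the highest ratios over both pairs, Zfp9, a KRAB protein with 12 fingers, had a cRPKM of 7.99 and 7.98 in the siControl libraries (Veh and Dex) and 14.92 and 15.89 in the siArglu1 libraries. Its log2 ratio was 0.93 (0.86 to 1.01) in vehicle and 0.99 (0.91 to 1.06) in Dex. Zfp580 rose from 7.18 and 7.01 to 14.55 and 13.09, and Zfp414 from 18.27 and 18.59 to 34.82 and 34.17. Both have short transcripts, with mappable lengths of 1052 and 1148 nt, and few fingers, 3 and 2 by the pattern. Zfp9 was the only KRAB gene past the size in this direction in either pair.

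Zfp575 had the most reads of these 6 genes, with 6018 and 6566 in the siControl libraries (Veh and Dex) and 12224 and 12322 in the siArglu1 libraries. Its cRPKM was 37.65, 38.11, 75.89 and 58.86, so the siArglu1 Dex library lay between the siControl libraries and siArglu1 Veh, and its log2 ratio was 1.04 (1.0 to 1.09) in vehicle and 0.62 (0.58 to 0.66) in Dex. Zfp651 had 2.0, 1.82, 3.22 and 3.44, with ratios of 0.72 and 0.91. Zfp524 had 4.69, 4.95, 7.80 and 7.57, with ratios of 0.76 and 0.60. For each of these 3 genes, both siArglu1 libraries lay above both siControl libraries.

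**Figure D2:**
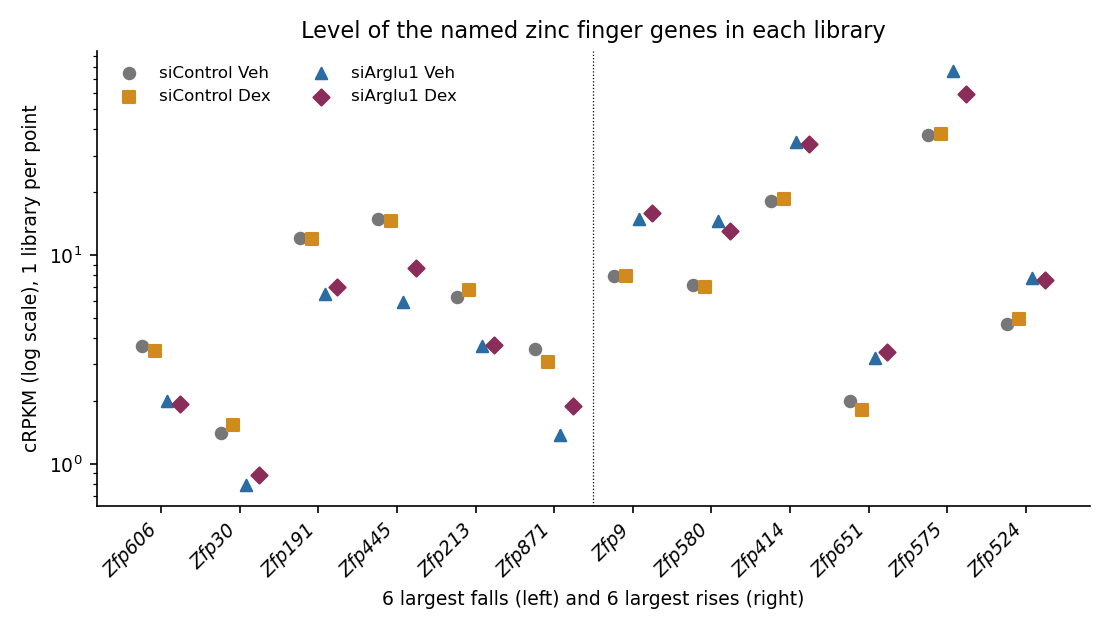
Level of the 6 genes with the largest falls (left of the dotted line) and the 6 with the largest rises (right) in cRPKM on a log axis, 1 library per point. In all 12 genes, both siArglu1 libraries lie on 1 side of both siControl libraries, which the choice of genes by both knockdown ratios favours. Zfp445, Zfp871 and Zfp575 differ most between siArglu1 Veh and siArglu1 Dex.

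The genes of the class with a known role were taken in lists. Of 11 silencers of repeats and imprinted genes, 6 were in the class. Zfp445 and Zfp568, above, were lower by 0.81 in vehicle, and none was in Dex. Zfp57, the other guardian of imprints, had 1497 and 1556 reads in the siControl libraries (Veh and Dex) and 1616 and 2123 in the siArglu1 libraries, and its log2 ratios were 0.13 and 0.16. Zfp809, which silences retroviral sequences, had ratios of 0.26 and 0.21. Zfp445 and Zfp57, which act at the same loci, thus did not go in the same direction, although with the trend on length removed across all genes the ratio of Zfp57 in vehicle was -0.03 and that of Zfp809 -0.01. The median of the list was 0.16 in vehicle and 0.10 in Dex, beside -0.11 and -0.04 for the class.

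Of the genes known from neural development, 8 were in the class, and 1 of them, Zfp292, was lower by 0.81 in vehicle. Its reads were 5734, 5778, 2944 and 4758 in the same order, with log2 ratios of -0.94 and -0.57. Zfp423, which partners early B-cell factors and is needed in the cerebellum, had 5050, 5013, 3713 and 5241 reads, with ratios of -0.42 and -0.22, and Zfp462 had ratios of -0.53 and -0.21, which were 0.03 and 0.07 with the trend on length removed. In these 3 genes siArglu1 Dex lay nearer to its control than siArglu1 Veh did. In siControl Veh, Zfp292 had 5734 reads at a cRPKM of 8.73 and Zfp462 5685 at 8.26, so both are of like mappable length. The part of length in the fall of Zfp292 was not tested. Zfp703 had the opposite sign, with ratios of 0.38 and 0.62, and Zfp503 ratios of 0.04 and 0.04. The median of the list was -0.18 in vehicle and -0.12 in Dex.

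The 9 genes that act on RNA or ribosomes went both ways, with none past 0.81. Zfp593, a factor of the assembly of the large ribosomal subunit, had a cRPKM of 30.07, 31.77, 44.73 and 42.1 in the same order and ratios of 0.61 and 0.40. Zfp622, of the same pathway, had ratios of 0.28 and 0.09, and Zfp36, which marks AU-rich mRNAs for decay, 0.46 and 0.53. Zfp326, which joins transcription elongation to splicing, had -0.51 and -0.37, and Zfp207 -0.38 and -0.43. Zfp598, the ubiquitin ligase that senses collided ribosomes, was at -0.00 and 0.04, with an interval in vehicle of -0.06 to 0.05.

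Likewise, none of the 15 promoter and chromatin factors was past 0.81. Zfp367 had log2 ratios of -0.58 and -0.51 and Zfp217, which works with corepressors, -0.56 and -0.30. Zfp91 had 0.33 and 0.35 and Zfp410, which drives the gene of the remodeler Chd4, 0.33 and 0.14. Zfp143, an activator that binds at promoters, had 1467, 1577, 1536 and 1996 reads in the same order and ratios of 0.09 and 0.05. The median of the list was -0.02 in both pairs, and it had 8 genes below 0 and 7 above in each pair.

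**Figure D3:**
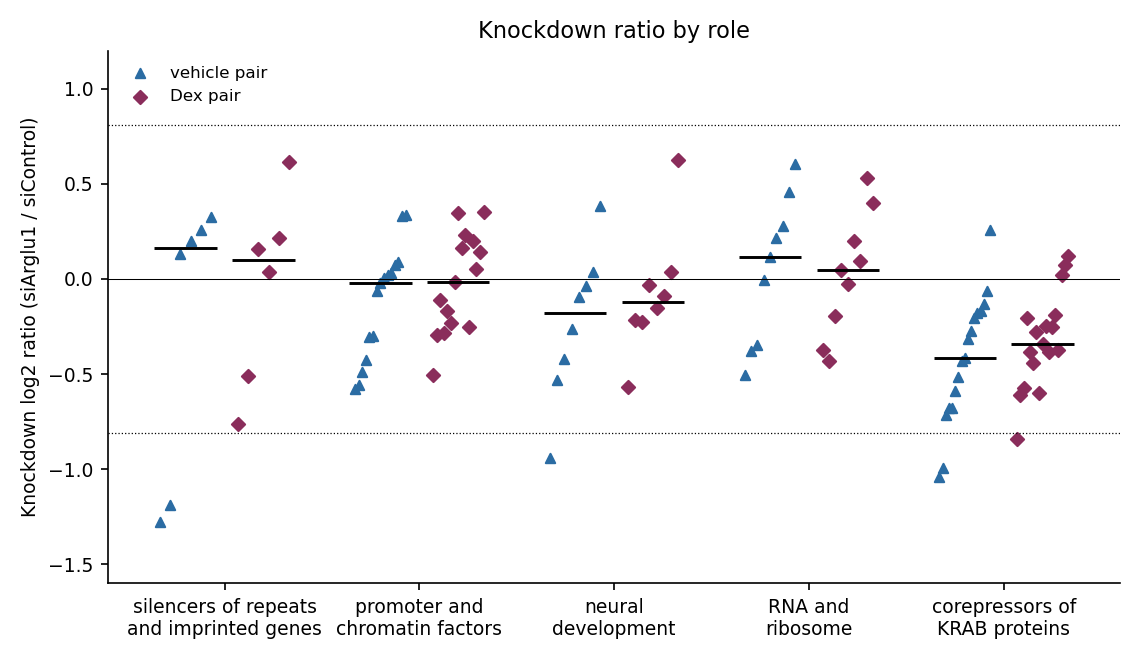
Knockdown log2 ratio of the zinc finger genes by role, and of the corepressors of KRAB proteins, which are not zinc finger genes of this class, in vehicle (triangles) and in Dex (diamonds), with the median as a black bar and dotted lines at 0.81 on either side of 0. Zfp445 and Zfp568 stand apart from the other silencers in vehicle, and the corepressors lie mostly below 0.

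The partners of KRAB proteins were looked at because the class works through them. Of 17 entries for corepressors, 16 were below 0 in vehicle and 14 in Dex, or 94.1% and 82.4%, beside 49.7% of all genes tested in each pair. Atf7ip holds 2 of the 17 entries, and both were below 0 in each pair. The medians of the 17 were -0.42 and -0.34. In vehicle, 2 of them were lower by 0.81, beside 8.77% of all genes tested, and in Dex 1 was, beside 5.93%. Long transcripts leaned the same way, since 75.3% of the other genes with at least 1000 reads and 4 kb or more of mappable sequence were below 0 in vehicle and 65.4% in Dex. Of the corepressors, 8 were of that length, and their median length was 3875 nt, beside 2708 nt over all genes tested. With the trend on length removed across all genes, the medians of the corepressors were -0.30 and -0.23. Trim28, the corepressor bound by the KRAB domain, had 50066 and 53630 reads in the siControl libraries (Veh and Dex) and 42738 and 54968 in the siArglu1 libraries, with log2 ratios of -0.21 and -0.25. Setdb1, the methyltransferase it recruits, had ratios of -0.06 and 0.07. Cbx5, a heterochromatin protein, had 34879, 36577, 16692 and 24975 reads and ratios of -1.04 and -0.84.

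KRAB genes and the other zinc finger genes had like knockdown ratios. The median was -0.10 for the 107 KRAB genes and -0.12 for the 135 without the pattern in vehicle, and -0.02 and -0.05 in Dex. In vehicle, 5 genes of each kind were lower by 0.81. Of the 21 genes lower by 0.5 in both pairs, 7 had the KRAB pattern, or 33.3%, beside 44% of the class, and 11, or 52.4%, lay next to another zinc finger gene, beside 50.6%. The ratio was lower in genes with more fingers in vehicle, with a median of 0.01 for 1 to 4 fingers, -0.04 for 5 to 9, -0.17 for 10 to 14 and -0.17 for 15 or more. In Dex, the medians ran from -0.06 to -0.01 with no such order.

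Length went with the ratio more closely than any of these. The mappable length, computed from reads and cRPKM, correlated with the log2 ratio over the 243 genes with a Spearman's rho of -0.37 for vehicle and -0.19 for Dex, beside -0.47 and -0.27 over the other genes with at least 1000 reads. The points share their libraries, and genes are not replicates. For the 67 zinc finger genes of 4 kb or more, the median in vehicle was -0.30, with 56 below 0, and for other genes of that length -0.31. For the 124 of 2 to 4 kb it was -0.04, beside -0.01. For the 52 under 2 kb it was 0.05, beside 0.27 for other genes, so the short zinc finger genes lay nearer to 0 than other short genes. The GC content of the transcript had a rho of 0.09 in vehicle and 0.12 in Dex.

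Each zinc finger gene was then set against genes of similar length and level, that is, genes of other names with a mappable length within 20% and a mean level within 1.5 times its own. Such genes numbered 13 to 620, with a median of 288. The median difference was -0.05 in vehicle, with 138 genes below their like and 105 above, and -0.04 in Dex, with 132 below and 111 above. In vehicle, 7 were lower than their like by 0.81 and 3 higher, a count that was not made for all genes. With the trend on length removed across all genes, the class likewise had 7 lower and 3 higher. That was beside 7.10% and 5.99% of all genes. Zfp445 was 1.26 below its like in vehicle and 0.77 below in Dex, and Zfp568 was 1.11 and 0.53 below. Zfp9 was 1.08 and 1.05 above, and Zfp651, whose length of 6248 nt goes with ratios mostly below 0, was 1.16 and 1.11 above. For Zfp606, the difference was -0.60 and -0.75, smaller than its plain ratio. With the trend on length removed across all genes, Zfp606 at -0.63, Zfp191 at -0.55, Zfp580 at 0.77 and Zfp414 at 0.70 no longer passed 0.81 in vehicle, whereas Zfp445 at -1.26, Zfp871 at -1.07, Zfp575 at 0.99 and Zfp9 at 1.06 did.

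**Figure D4:**
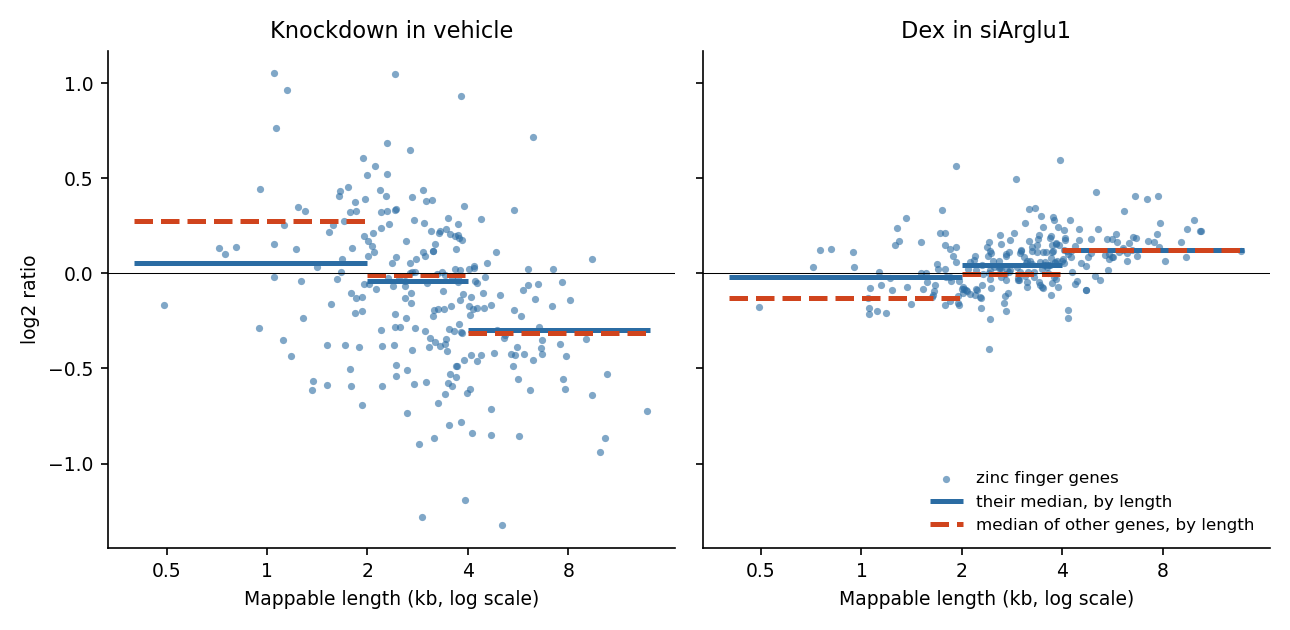
Log2 ratio of each of the 243 zinc finger genes against mappable length in kb (log axis), for knockdown in vehicle (left) and for Dex in siArglu1 (right), with the median of zinc finger genes (solid) and of other genes with at least 1000 reads (dashed) under 2 kb, from 2 to 4 kb and at 4 kb or more. On the left, long genes lie below 0 (medians -0.30 and -0.31), and on the right they lie above 0 (0.12 in both).

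Dex left the class nearly as it was in siControl cells. No zinc finger gene changed by 1 on the log2 scale, in either direction, beside 0.144% of all genes lower and 0.32% higher, or 0.0799% higher among other genes with at least 1000 reads, and the largest absolute ratio was 0.33. The median was -0.01. The largest rise was that of Zfp365, one of the genes without a C2H2 pattern, which is expressed in neurons and has a part in neurite growth. Its reads went from 7900 to 10645 with Dex in siControl cells, a log2 ratio of 0.33 (0.29 to 0.37), and from 7574 to 12221 in siArglu1 cells, a ratio of 0.28 (0.24 to 0.32). Thus it was higher after Dex with and without knockdown. The next rise, that of Zfp667, was 0.31 (0.09 to 0.53) on 301 and 400 reads, and in siArglu1 its ratio was -0.00. The largest falls, of Zfp3 and Zfp820, were -0.31 and -0.24 in siControl and -0.10 and -0.08 in siArglu1.

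In siArglu1 cells, no gene of the class was past 1 either, beside 0.072% of all genes lower and 0.328% higher, or 0.0699% higher among other genes with at least 1000 reads, but the small ratios leaned upwards. The median was 0.06, with 165 genes above 0 and 78 below, whereas over all genes tested it was -0.00. The largest was that of Zfp568, with 0.60 (0.48 to 0.72), followed by Zfp235 with 0.57 and Zfp445 with 0.50, and the largest fall was that of Zfp575, with -0.40 (-0.44 to -0.36). Zfp568, Zfp445 and Zfp575 were past the size after knockdown in vehicle, a comparison that shares the siArglu1 Veh library with this one. Zfp235 had 347 and 345 reads in the siControl libraries (Veh and Dex) and 211 and 416 in the siArglu1 libraries, so siArglu1 Veh stood apart from the other libraries. Against genes of similar length and level, the median difference in siArglu1 was 0.02, with 143 above and 100 below.

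Length went with the Dex ratio as well, and in the opposite sense in siArglu1. The rho with mappable length was -0.25 in siControl and 0.45 in siArglu1 for the class, and -0.22 and 0.67 for the other genes. Zinc finger genes of 4 kb or more had a median Dex ratio of 0.12 in siArglu1, with 59 of 67 above 0, and other genes of that length also had 0.12. The Dex ratios of siControl and siArglu1, in pairs that share no library, had an r of -0.10 over the class, with the same sign in 107 genes, or 44%, beside 44.5% for the other genes. The number of fingers had a rho of 0.30 with the Dex ratio in siArglu1, and the median was 0.12 for genes of 15 or more fingers.

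Splicing was compared by the PSI, the percent spliced in of an exon or the percent use of a splice site, with a change of at least 15 PSI counted. Of the 243 genes, 176 had an event that could be compared, and these held 715 events. After knockdown in vehicle, 35 events changed, 21 lower and 14 higher, or 4.9%, beside 1.96% of the events of all genes. In Dex, 27 changed, 12 lower and 15 higher, or 3.78% beside 1.52%. After Dex treatment, 20 events changed in siControl and 20 in siArglu1, 2.8% in each, beside 0.717% and 0.948%. The class thus had a larger share of changed events than all genes in each of the 4 comparisons, Dex in siControl included. Its genes also had fewer reads, with a median of 5673 over the 4 libraries beside 13103 for the other genes with at least 1000 reads.

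With coverage scored OK or better in all 4 libraries, the shares came down. In vehicle, 10 of 445 events changed after knockdown, or 2.25% beside 1.22%, and 8 changed in Dex, or 1.8% beside 1.0%. After Dex in siControl, 1 changed, or 0.225% beside 0.23%. The knockdown shares at 15 PSI thus stayed above those of all genes, whereas the Dex share, of a single event, was close to theirs. Cassette exons lay nearer to all genes, with 6 of 297 in vehicle, or 2.02% beside 1.6%, and 4 in Dex, or 1.35% beside 1.31%. In each pair, 2 of 86 events at 3′ splice sites changed, beside 0.445% and 0.327%, and 2 of 61 at 5′ splice sites, beside 0.619% and 0.516%. At 25 PSI, 0 of the 445 events changed in vehicle, beside 0.215%, and 1 in Dex, or 0.225% beside 0.192%. Of 35 splice sites or exons past 15 PSI in vehicle, 21 moved the same way in Dex by any amount, 12 moved the other way and 2 did not move. Past 15 PSI in both pairs, 6 sites, in 5 genes, had the same direction and 1 had opposite directions. The last, a 5′ splice site of Zfp397 named after its values were seen, moved by -16.54 and 19.79 PSI on 19 to 31 junction reads.

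Of the cassette exons, a 90-nt exon of Zfp68 (chr5:139057698-139057787, mm9), a KRAB gene, had a PSI of 48.95 and 44.79 in the siControl libraries (Veh and Dex) and 31.78 and 26.62 in the siArglu1 libraries. Its coverage was in the highest class in all 4 libraries, and both knockdown libraries lay below both controls, with differences of -17.17 and -18.17 PSI. A 196-nt exon of Zfp446 (chr7:13564800-13564995) had 84.62, 90.16, 58.14 and 71.79, with very low coverage in siArglu1 Veh. A 94-nt exon of Zfp346 (chr13:55231895-55231988), which encodes a protein that binds double-stranded RNA, had 84.62, 81.82, 70.41 and 69.11, in the highest class of coverage and with differences of -14.21 and -12.71. The Zfp68 and Zfp346 transcripts hardly changed in level, with log2 ratios of -0.05 and -0.09 for Zfp68 and 0.21 and 0.20 for Zfp346.

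Other exons were included more. In Zfp532, whose protein forms a chromatin complex with Zfp592 and Zfp687, an exon of 163 nt had a PSI of 44.33, 52.63, 60.78 and 78.95 in the same order, and one of 282 nt had 50, 59.32, 66.04 and 88.24. Both exons thus had their lowest value in siControl Veh and their highest in siArglu1 Dex. Their coverage was scored LOW in siArglu1 Veh and OK in the other libraries. A 124-nt exon of Zfp946 (chr17:22581135-22581258) had 78.72, 81.82, 94.59 and 100, with coverage scored LOW in both vehicle libraries and OK in both Dex libraries. None of these 3 exons was thus among the events with OK coverage in all 4 libraries. The tables of cassette exons give no reads per exon, so no counting interval can be set on these values.

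At alternative splice sites, junction reads were few. A 3′ splice site of Zfp90 was used in 19 of 45 reads in siControl Veh, 24 of 44 in siControl Dex, 12 of 45 in siArglu1 Veh and 14 of 56 in siArglu1 Dex. These were 42.22%, 54.55%, 26.67% and 25%. The exact binomial intervals were 27.7 to 57.8% and 14.6 to 41.9% in the vehicle pair, which overlap, and 38.8 to 69.6% and 14.4 to 38.4% in the Dex pair, which do not. A 5′ splice site of Zfp672 had 35 of 80, 31 of 64, 33 of 58 and 49 of 78 reads, with overlapping intervals in both pairs. In Zfp157, a site choice of 4 nt had PSI values of 39.34, 38.96, 26.16 and 25 at a 5′ site. At a 3′ site they were 58.47, 61.04, 73.24 and 73.61, so the values were alike within siControl and within siArglu1. Both sites listed the same 20 to 38 junction reads, so the fall and the rise may not be separate changes. All 4 libraries scored LOW at both, and the interval of the 5′ site in siArglu1 Dex was 8.66 to 49.1%. A 5′ splice site of Zfp219 was used in 6 of 27, 8 of 44, 7 of 21 and 22 of 38 reads, and its intervals in the Dex pair, 8.19 to 32.7% and 40.8 to 73.7%, did not overlap.

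**Figure D5:**
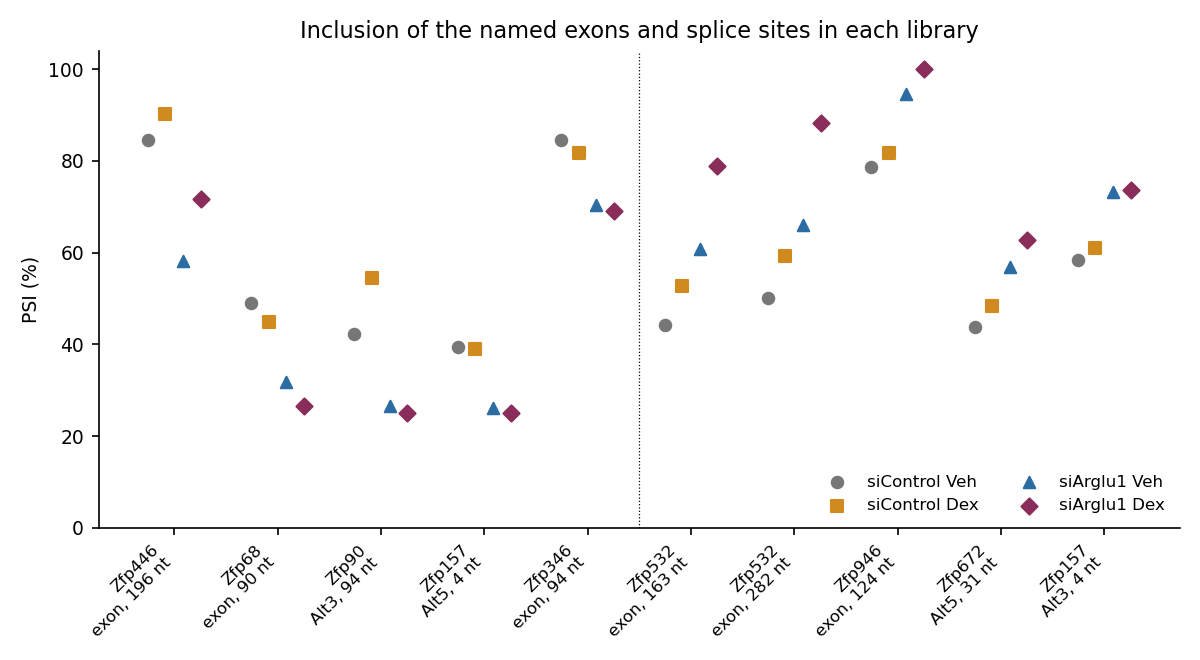
PSI of the 5 exons or splice sites with the largest falls (left of the dotted line) and the 5 with the largest rises (right) by the smaller change of the 2 knockdown pairs, 1 library per point. In all 10, both siArglu1 libraries lie on 1 side of both siControl libraries, which the choice by both knockdown changes favours. Zfp157 has a site on each side of the dotted line, and both sites list the same junction reads.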

How the data were processed

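RNA-seq was analysed from 4 libraries, 1 for each combination of siControl or siArglu1 with Veh or Dex, with 66074574 to 86541444 reads on genes. The authors deposited a count of reads per gene, not normalized, and the cRPKM, an RPKM corrected for mappability. The deposited splicing tables hold the PSI as a percent, with a coverage score in words and, for alternative splice sites, junction reads. The paper names vast-tools for splicing. The submitters' processing notes name Bowtie and mm9, with no role or version. The 2 columns of the authors' own Dex ratios were not used.

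Counts were scaled with TMM factors (edgeR 4.0.16, R 4.3.3), and log2 ratios were taken of CPM with a prior count of 1 over the 12497 genes with at least 75 reads. The size of 0.81 for knockdown and of 15 PSI is that of the study, and 1 for Dex was set here. An event was compared if no library lacked its PSI and at least 3 scored LOW or higher. Exact 95% intervals condition on the reads of both libraries or are Clopper-Pearson intervals. A single pair of libraries gives no test, so the ratios have none. As alternatives, an additive model of knockdown and Dex over the 4 libraries was tested in edgeR (quasi-likelihood) and in DESeq2 1.42.0. Its 1 residual degree of freedom comes from the difference between the knockdown ratios of both pairs, not from replicates. Python 3.11.15 with scipy 1.17.1 was used, and the scripts were tested on simulated data.

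Fingers and the KRAB pattern were counted in translated GENCODE M21 coding sequences, since no RefSeq protein table was used here, and the length, GC content and neighbours come from reads, GENCODE and RefSeq. Similar genes were of other names. Splicing coordinates are those of the deposited tables (mm9), and promoters are in GRCm38.p6. Members and lists were chosen with earlier results of these data known. The genes named were the 6 largest falls and rises by the smaller of both knockdown ratios, the 5 highest by cRPKM, the 2 largest rises and falls after Dex in siControl, the genes beside the minimum of reads, and the 5 largest falls and rises in PSI. Genes past the size, listed by role or lacking the pattern, and Zfp235 and Zfp219, were named after their values were seen. Some genes of the list of sympathetic neuroblastoma markers are not reported here, and their values are not in its sums.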

Additional observations from a re-analysis of the deposited data

Results flagged for a closer look

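For 3 zinc finger genes, the Dex ratio had opposite signs in siControl and siArglu1, at 0.15 or more on each side and with counting intervals that left out 0. The log2 ratio of Zfp871 was -0.19 in siControl and 0.43 in siArglu1, that of Zfp398 was -0.16 and 0.21, and that of Zfp532 was -0.20 and 0.18. Each is a difference between 2 single libraries on both sides, and the difference between the groups was not tested. Zfp871 and Zfp398 were also among the genes lower by 0.81 after knockdown in vehicle, a comparison that shares libraries with these.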

How the results depend on the processing

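The 12 genes with the largest falls and rises after knockdown kept their direction with DESeq2 size factors, deposited cRPKM, a prior count of 5 and the trend on length removed. Over all 243 genes, the sign in vehicle changed for 4, 12, 0 and 43 in that order, with absolute ratios of at most 0.01, 0.03 and, for the trend on length, 0.53, and in Dex for 2, 4, 0 and 23. For the results on the class as a whole, 62 values were called the same and 31 were not. A count was called the same within 1.5 times the count reported. A median difference against similar genes was called the same where it moved by less than a typical counting interval. Some of the 62 were fixed in advance, since leaving out the minimum of reads kept the same 243 genes. For single genes, 84 of 96 values moved by less than their counting interval. Knockdown in vehicle, with 10 genes lower and 4 higher, gave 0 and 0 at a size of 1.5, beside 1.82% and 1.28% of all genes, and, at a size of 0.5 chosen after the data were seen, 40 and 12, beside 18.7% and 16.6% of all genes. Of the 292 Zfp genes with at least 75 reads, 14 were lower and 9 higher, beside 8.77% and 7.0% of all genes. The additive model, which takes the Dex libraries as replicates, gave 82 lower and 44 higher in edgeR, beside 30.9% and 30.8% of all genes, and 64 and 29 in DESeq2, beside 25.2% and 22.9%, at an adjusted p of 0.05. Knockdown in Dex, with 2 lower and 4 higher, gave 0 and 0 at 1.5, beside 144 and 156 of the 12497 genes. At 0.5 it gave 27 and 14, beside 14.2% and 14.6%. With the trend on length removed it gave 1 and 2, beside 5.60% and 6.0%. Of all Zfp genes with at least 75 reads, 3 were lower and 9 higher, beside 5.93% and 6.19%. For Dex in siControl, with 0 and 0, that minimum gave 1 lower, beside 0.144% of all genes. A size of 0.3, chosen after the data were seen, gave 1 lower and 2 higher, beside 3.76% and 3.49%. For Dex in siArglu1, with 0 and 0, the minimum of 75 reads gave 1 higher, beside 0.328%. A size of 0.5 gave 2 higher, beside 2.7%, and a size of 0.3 gave 1 lower and 12 higher, beside 3.54% and 8.17%. Events lower and higher in vehicle, 21 and 14, became 4 and 6 with OK coverage in all libraries. That was 2.25% beside 1.22% of the events of all genes. At 25 PSI they became 4 and 1, or 0.699% beside 0.381%. In Dex, 12 and 15 became 5 and 3 with OK coverage, or 1.8% beside 1.0%. At 25 PSI they became 1 and 5, or 0.839% beside 0.322%. The minimums and sizes act by construction, and the cause of the other moves was not tested. The additive model sets siArglu1 against siControl within each treatment, and no block of replicates could be fitted with 1 library per group. Depth limits single genes near 1000 reads, and events with few junction reads.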

Other observations

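Other families of zinc finger factors, which the rule on names leaves out, were tabulated beside the class. Over all genes tested, 8.77% were lower and 7.0% higher by 0.81 after knockdown in vehicle, and 5.93% and 6.19% in Dex. Among 32 Zbtb genes with at least 75 reads, none was past 0.81 after knockdown in vehicle, and the median log2 ratio was -0.08. In Dex 1 was higher, Zbtb4, with 105, 76, 172 and 346 reads in siControl Veh and Dex and siArglu1 Veh and Dex and ratios of 0.73 in vehicle and 1.88 in Dex. Of 20 Zscan and Zkscan genes, 1 was lower in vehicle, with a median of -0.02, and none was past 0.81 in Dex. Of 18 Klf and Sp genes, 4 were lower and 2 higher in vehicle and 3 and 3 in Dex, with medians of -0.38 and -0.11. Sp4 had the largest fall, with ratios of -1.59 in vehicle and -1.46 in Dex and a cRPKM of 3.30 in siControl Veh and 1.07 in siArglu1 Veh. Klf4, a factor of stem cells, was higher, with ratios of 1.0 and 1.14. These genes are named after their values were seen.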
